A study of Mus musculus with 8 samples.

Results

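The FOXO transcription factors and genes linked with quiescence were followed in PD-1hi CD8 T cells from leukaemia-bearing mice given an antibody that blocks the interleukin 10 receptor. The set holds 10 genes of the 22180 that the arrays measured by a row with exactly 1 gene symbol. It was chosen by name, with earlier results of these data known. Its genes are the factors Foxo1, Foxo3 and Foxo4, the sestrins Sesn1 and Sesn3, and Ccng2, Btg1, Btg2, Pik3ip1 and Tob1. Of several rows of a gene, the row with the highest mean over all 8 arrays was used. That step used the signal and not the difference between groups. It bore on Foxo1 only, whose row 17397497 had a mean of 7.68 and whose other row 17405165 had a mean of 5.26 (log2 signal). All 10 genes passed the filter on dim genes, a mean over the 8 arrays of at least 5.24, the median of all row means, which 12019 of the 22180 genes passed.

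The 4 anti-IL-10R arrays and the 4 isotype arrays all came from female C57BL/6 mice that carried transplanted CLL cells from Eµ-TCL1 mice, in which the TCL1 transgene is driven in B cells. Antibody or isotype control was given from week 3 after transplantation, and cells were taken from the spleen at week 5. The sort kept Lin- cells that were TCRb+ and CD8+, CD127low, CD44int-hi and PD-1hi, so the protein made from Il7r (CD127), a known FOXO1 target, was itself part of the gate. The labels give the strain also as C56BL/6, give no age, and do not say that each array is a separate animal, so p-values rest on the spread from array to array, which may be technical.

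FOXO proteins are transcription factors that the PI3K and AKT kinase pathway holds in check: when AKT is active it phosphorylates them and they leave the nucleus. When the pathway is quiet, they turn on genes that slow growth and division, restrain PI3K and mTOR signalling and limit oxidative damage. In T cells, FOXO1 is known for keeping naive and memory cells at rest through genes such as Klf2 and Il7r, and for sustaining PD-1 expression in exhausted CD8 T cells.

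One array stood apart. Across the 12019 tested genes, isotype replicate 1 correlated with the others at 0.915 to 0.929 (Pearson's r over genes, which are no independent replicates) and the other 7 arrays with one another at 0.962 to 0.986. The defining T cell and CD8 markers (Cd3d, Cd3e, Cd3g, Cd8a, Cd8b1 and Pdcd1) were bright on every array. Their mean level was 12.00 to 12.04 on the anti-IL-10R arrays and 11.52 to 11.83 on the isotype arrays. All 6 had a higher mean on the anti-IL-10R arrays, and none passed the threshold without the filter on dim genes. Of 10 measured B cell markers, 6 were below the filter, among them Ms4a1 and Pax5, and 9 had a lower mean on the anti-IL-10R arrays. Their mean level was 4.86 to 5.02 on the anti-IL-10R arrays and 4.84 to 5.49 on the isotype arrays. For myeloid markers the mean level was 5.09 to 5.27 on the anti-IL-10R arrays and 4.98 to 5.49 on the isotype arrays, with 6 of 10 below the filter. CD4 and regulatory T cell markers had a mean level of 5.26 to 5.50 on the anti-IL-10R arrays and 5.41 to 5.97 on the isotype arrays, the highest being isotype replicate 1. Of these 5, 2 had a higher and 3 a lower mean on the anti-IL-10R arrays, and Cd4 and Cd40lg were below the filter. Foxp3 had the largest difference, −0.92 ± 0.47 (SE, limma adjusted p = 0.415 without the filter). Its mean was 5.33 ± 0.23 (SD, n = 4) on anti-IL-10R arrays and 6.25 ± 1.17 on isotype arrays. NK, erythroid and dendritic cell marker means overlapped between the groups. The part of other cells in the results below was not tested. In sorted bulk samples, fewer cells of a kind and less RNA per cell cannot be told apart.

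Of the 10 genes, Sesn1 rose after IL-10R blockade, and none of the 10 fell. In all, 9 of the 10 had a difference above 0, as did 54.7% of all tested genes. Their median difference was 0.36, and that of all tested genes was 0.03 (anti-IL-10R minus isotype, log2 signal). At the threshold used here, limma's adjusted p below 0.05 over all tested genes, 1.23% of the tested genes were higher and 1.3% were lower. For 4 of the 10 genes (Foxo3, Sesn1, Ccng2 and Pik3ip1), every anti-IL-10R array lay above every isotype array, and 9.32% of all tested genes did so. None lay entirely below, as 5.99% of all tested genes did. A difference of at least 0.45 was seen for 5 of the 10 genes and for 8.19% of all tested genes. That cutoff was not planned and lies just below the value of Sesn3, so the contrast follows from its choice. Without isotype replicate 1 the difference of Sesn3 was 0.14. The genes were chosen with earlier results known, so these counts describe them and test nothing about the set.

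**Figure D1:**
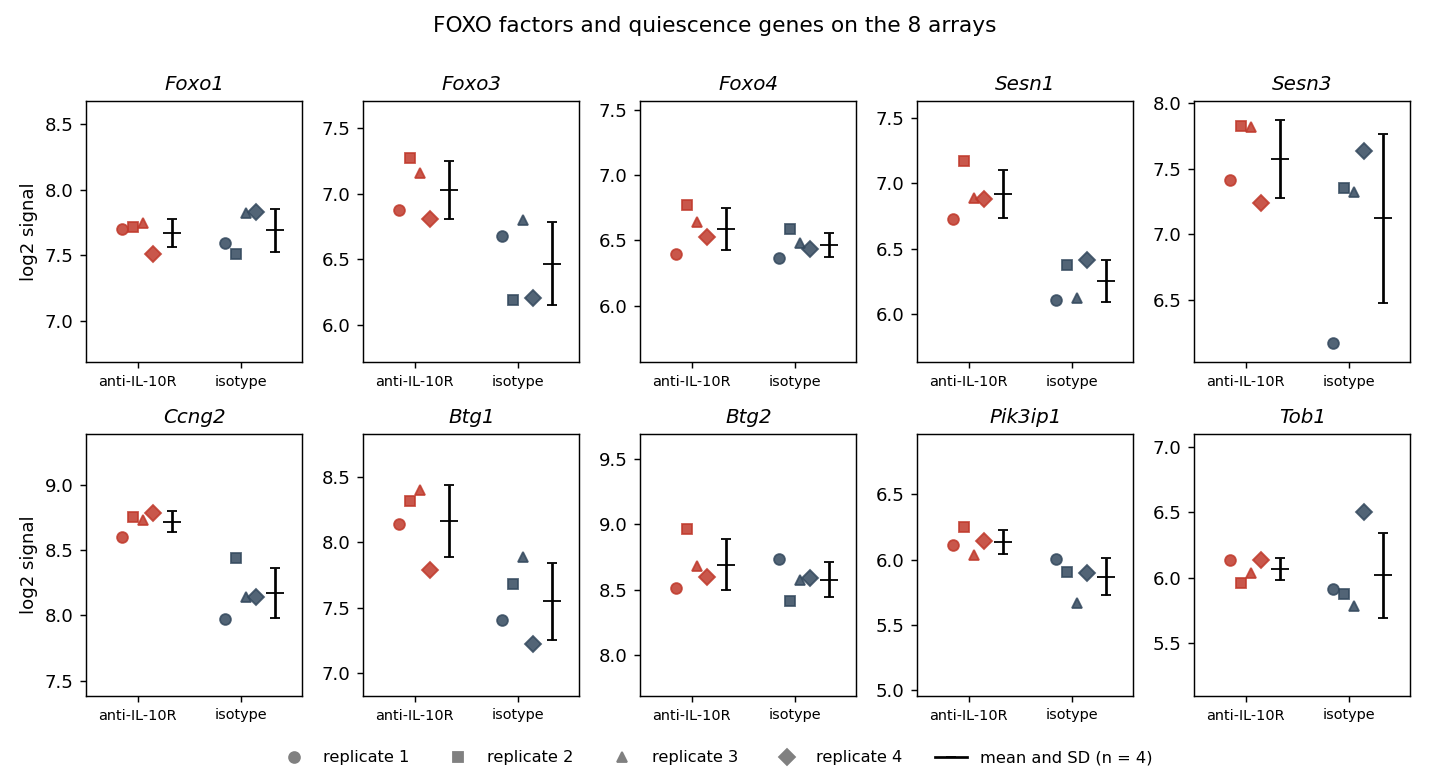
Log2 signal of each of the 10 genes on the 4 anti-IL-10R arrays (red) and the 4 isotype arrays (dark blue), with a symbol for each replicate and the mean and SD beside them; each panel spans 2 log2 units. Sesn1, Ccng2, Pik3ip1 and, by a very narrow margin, Foxo3 have groups that do not overlap, and isotype replicate 1 lies far below the other arrays for Sesn3.

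None of the 3 FOXO factors passed the threshold. Foxo1, the factor best known in T cells, had 7.70, 7.72, 7.75 and 7.51 on anti-IL-10R replicates 1 to 4, against 7.59, 7.51, 7.82 and 7.83 on isotype replicates 1 to 4. The groups overlapped throughout, and the highest array was an isotype one. The difference was −0.02 ± 0.12 (SE, limma adjusted p = 0.945), with a 95% confidence interval of −0.29 to 0.24. The dimmer row of Foxo1 lay close to the filter, with a mean of 5.17 ± 0.07 (SD, n = 4) on anti-IL-10R arrays and 5.36 ± 0.13 on isotype arrays. It differed by −0.19 ± 0.11 (SE, limma adjusted p = 0.355 over all rows with 1 symbol).

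Foxo3, a factor that shares the DNA motif of FOXO1, was the factor with the largest difference of the 3. It had 6.88, 7.28, 7.16 and 6.81 on anti-IL-10R replicates 1 to 4, against 6.68, 6.19, 6.80 and 6.20 on isotype replicates 1 to 4. The groups did not overlap, but the lowest anti-IL-10R array and the highest isotype array were almost level. The difference was 0.56 ± 0.18 (SE), a 1.48-fold higher signal with a 95% confidence interval of 1.12 to 1.95, and it did not pass the threshold (limma adjusted p = 0.12). Without isotype replicate 1 it was 0.63 ± 0.18 (adjusted p = 0.0542).

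Foxo4, the smaller X-linked relative, had 6.40, 6.77, 6.64 and 6.53 on anti-IL-10R replicates 1 to 4, against 6.36, 6.59, 6.48 and 6.44 on isotype replicates 1 to 4. The groups overlapped, and the difference was 0.12 ± 0.12 (SE, limma adjusted p = 0.618), with a 95% confidence interval of −0.14 to 0.38. Leaving out anti-IL-10R replicate 2 gave 0.06, and leaving out anti-IL-10R replicate 1 gave 0.18. Whether the 3 factors differed from one another in their response was not tested.

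Genes most like each factor over the 8 arrays were named by Pearson's r, among tested genes on none of the lists used here. These values describe the 8 arrays and have no test, and the genes share any difference between arrays. The highest values were picked from all those genes, so a high r comes in part from the choice. Foxo1 was followed most closely by Dicer1 (r 0.979), Acss2 (0.941) and Taok3 (0.919). Foxo3 was followed by Pcdhga10 (0.973), Cldnd2 (0.96) and Celf6 (0.95), and Foxo4 by Tmem170b (0.979), Extl2 (0.956) and Zfp992 (0.952). Without isotype replicate 1, on arrays that also served the choice, these values lay between 0.943 and 0.984.

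**Figure D2:**
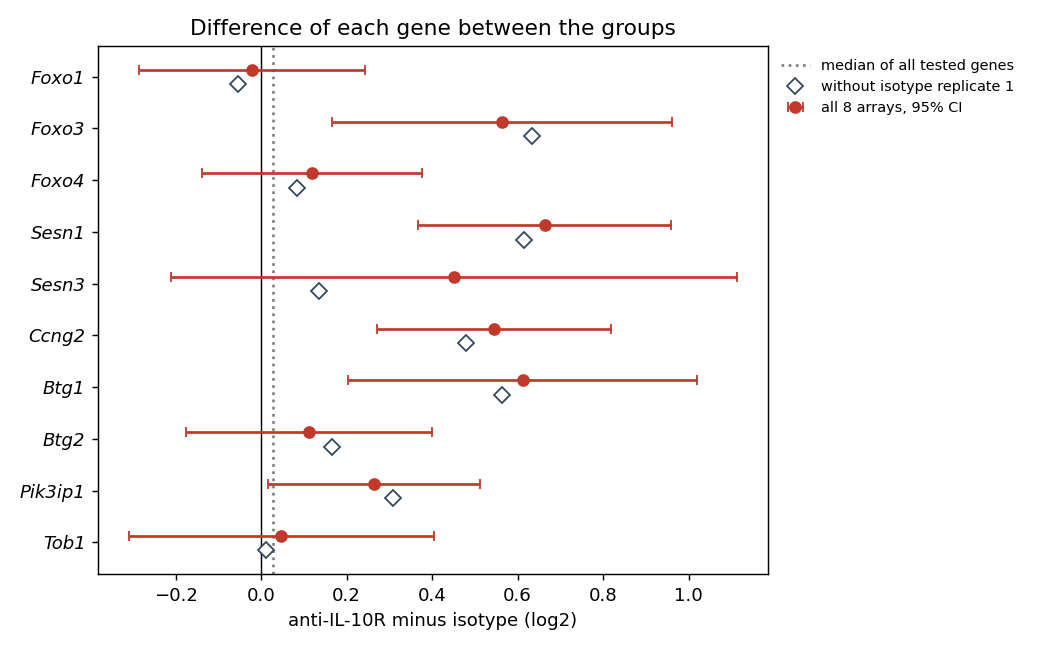
Difference of each gene between anti-IL-10R and isotype arrays (log2, anti-IL-10R minus isotype): filled points with 95% confidence intervals use all 8 arrays and open diamonds leave out isotype replicate 1. The intervals of Foxo3, Sesn1, Ccng2, Btg1 and Pik3ip1 lie above 0, those of the other 5 span 0, and the point of Sesn3 moves from 0.45 to 0.14 when that array is left out.

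Of the 10 genes, Sesn1 had the largest difference. Sestrins are stress-induced proteins that restrain mTORC1 through the GATOR complexes. Sesn1 (row 17232912) had 6.73, 7.17, 6.89 and 6.88 on anti-IL-10R replicates 1 to 4, against 6.11, 6.38, 6.12 and 6.41 on isotype replicates 1 to 4. The lowest anti-IL-10R array stood clear of the highest isotype array. The mean was 6.92 ± 0.19 (SD, n = 4) on anti-IL-10R arrays and 6.25 ± 0.16 on isotype arrays, a difference of 0.66 ± 0.13 (SE). Sesn1 thus rose 1.58-fold (95% confidence interval 1.29 to 1.94, limma adjusted p = 0.0379), and its p ranked 183 among the 12019 tested genes. The call ended when any 1 of the other 7 arrays was left out (adjusted p 0.0682 to 0.121), and without isotype replicate 1 it held (0.61 ± 0.13, adjusted p = 0.0208). Without the filter on dim genes the adjusted p was 0.0557.

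Sesn3, a sestrin induced by FOXO1 in other cells, varied more. It had 7.41, 7.83, 7.82 and 7.24 on anti-IL-10R replicates 1 to 4, against 6.17, 7.36, 7.32 and 7.64 on isotype replicates 1 to 4. Isotype replicate 1 was far below all others, and the remaining isotype arrays lay within the anti-IL-10R range. The difference was 0.45 ± 0.30 (SE, limma adjusted p = 0.436), and 0.14 ± 0.16 without that array (adjusted p = 0.646).

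Ccng2 encodes cyclin G2, an unusual cyclin that accompanies exit from the cell cycle and is a known FOXO target. It had 8.60, 8.75, 8.73 and 8.78 on anti-IL-10R replicates 1 to 4, against 7.97, 8.44, 8.14 and 8.14 on isotype replicates 1 to 4. The anti-IL-10R arrays were tightly grouped above all isotype arrays. The difference was 0.55 ± 0.12 (SE), 1.46-fold with a 95% confidence interval of 1.21 to 1.76, and the limma adjusted p of 0.0506 lay just outside the threshold. Without isotype replicate 1 the difference was 0.48 ± 0.11 and passed (adjusted p = 0.0283). With that array left out, Sesn1 and Ccng2 were the 2 of the 10 genes past the threshold, where 3.35% of all tested genes were higher and 5.9% lower.

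**Figure D3:**
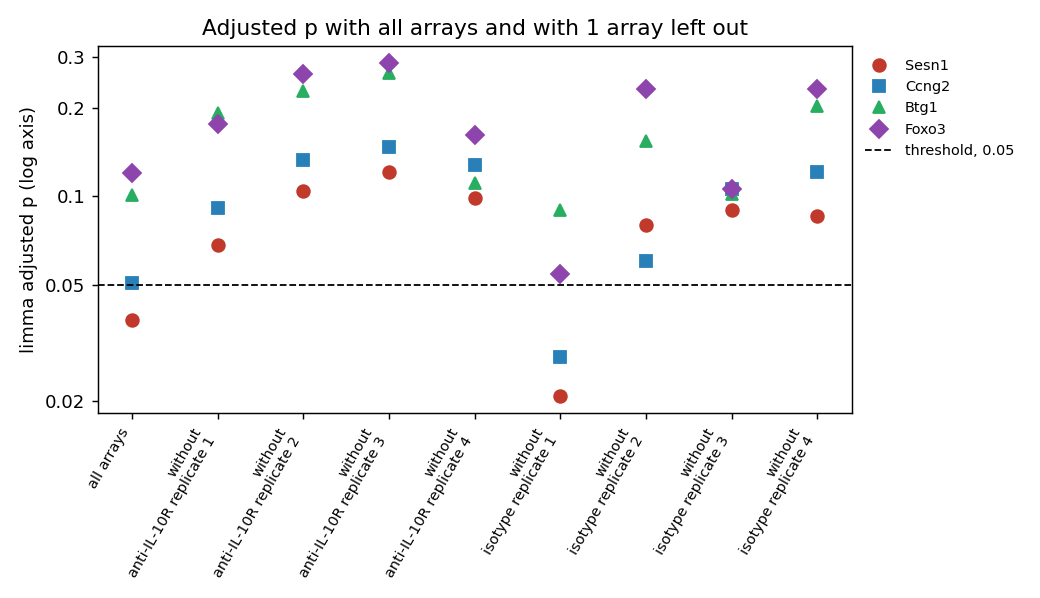
Limma adjusted p (log axis) of Sesn1, Ccng2, Btg1 and Foxo3 with all 8 arrays and with each array left out in turn; the dashed line is the threshold of 0.05. Sesn1 lies below the line with all arrays (0.0379) and without isotype replicate 1 (0.0208), and Ccng2 only without that array (0.0283).

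BTG and TOB proteins slow proliferation by bringing the CCR4-NOT complex, which shortens poly(A) tails, to messenger RNAs, and Btg1 and Btg2 together are known to keep naive mouse T cells quiescent. Btg1 had 8.14, 8.32, 8.40 and 7.79 on anti-IL-10R replicates 1 to 4, against 7.41, 7.68, 7.89 and 7.22 on isotype replicates 1 to 4. Anti-IL-10R replicate 4 fell below the highest isotype array, and the other 3 lay above all of them. The difference was 0.61 ± 0.18 (SE), 1.53-fold with a 95% confidence interval of 1.15 to 2.03, and it did not pass (limma adjusted p = 0.101).

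Its relative Btg2, which p53 is also known to induce, had 8.51, 8.96, 8.68 and 8.60 on anti-IL-10R replicates 1 to 4, against 8.74, 8.41, 8.57 and 8.58 on isotype replicates 1 to 4, with overlapping groups. The difference was 0.11 ± 0.13 (SE, limma adjusted p = 0.675), with a 95% confidence interval of −0.18 to 0.40, and it was 0.02 without anti-IL-10R replicate 2.

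Tob1, a further member of the family and a known brake on T cell activation, had 6.14, 5.96, 6.04 and 6.14 on anti-IL-10R replicates 1 to 4, against 5.92, 5.88, 5.79 and 6.50 on isotype replicates 1 to 4. Isotype replicate 4 was the highest of all arrays and the other isotype arrays were the lowest. The difference was 0.05 ± 0.16 (SE, limma adjusted p = 0.904). It was 0.21 without isotype replicate 4, −0.03 without isotype replicate 3 and −0.02 after quantile normalization.

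Pik3ip1 encodes a membrane protein that restrains PI3K itself, upstream of AKT. It had 6.11, 6.25, 6.04 and 6.14 on anti-IL-10R replicates 1 to 4, against 6.01, 5.91, 5.67 and 5.90 on isotype replicates 1 to 4. The groups did not overlap, with a narrow gap between the closest arrays. The difference was 0.26 ± 0.11 (SE), 1.20-fold with a 95% confidence interval of 1.01 to 1.43, and it did not pass (limma adjusted p = 0.225).

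By array, anti-IL-10R replicate 2 gave the highest signal of all 8 arrays for 6 of the 10 genes, and isotype replicate 1 the lowest for 4. The mean log2 signal over the 10 genes was 7.26, 7.50, 7.41 and 7.24 on anti-IL-10R replicates 1 to 4, against 6.89, 7.03, 7.06 and 7.09 on isotype replicates 1 to 4. Every anti-IL-10R array lay above every isotype array in this mean, which has no test since the genes were chosen with results known. The T cell and CD8 marker mean, given above, also separated the groups. Without isotype replicate 1 the median difference of the 10 genes was 0.24, and that of all tested genes −0.01.

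The promoter windows of 9 of the 10 genes (all but Foxo4) were read from RefSeq on GRCm38.p6, from 250 bases before to 50 after the start, and searched for the FOXO motif TGTTTAC on both strands. It was found in 2 of their 10 windows, and in 3.65% of all 32851 windows. The windows of Sesn1 (the gene past the threshold) and Btg1 hold it, and that of Ccng2 (the gene next to the threshold) is shown beside them. Capitals mark the motif, on the strand of the gene. For Sesn1 it begins 22 bases after the start of transcription, in 1 of its 2 windows, and for Btg1 204 bases before the start. The windows lie at chr10:41810324-41810623 (plus strand) for Sesn1, chr10:96616751-96617050 (plus strand) for Btg1 and chr5:93267323-93267622 (plus strand) for Ccng2.
Sesn1: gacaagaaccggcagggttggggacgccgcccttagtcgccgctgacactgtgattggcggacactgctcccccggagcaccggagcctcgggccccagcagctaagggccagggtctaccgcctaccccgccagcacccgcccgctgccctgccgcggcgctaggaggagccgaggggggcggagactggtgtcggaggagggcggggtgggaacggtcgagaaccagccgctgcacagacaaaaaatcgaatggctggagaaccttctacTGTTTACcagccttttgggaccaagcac
Btg1: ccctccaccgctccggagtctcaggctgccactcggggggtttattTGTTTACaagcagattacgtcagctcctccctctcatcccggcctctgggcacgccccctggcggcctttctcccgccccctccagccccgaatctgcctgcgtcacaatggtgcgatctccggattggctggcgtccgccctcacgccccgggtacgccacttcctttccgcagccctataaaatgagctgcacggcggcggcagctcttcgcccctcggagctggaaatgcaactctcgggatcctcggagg
Ccng2: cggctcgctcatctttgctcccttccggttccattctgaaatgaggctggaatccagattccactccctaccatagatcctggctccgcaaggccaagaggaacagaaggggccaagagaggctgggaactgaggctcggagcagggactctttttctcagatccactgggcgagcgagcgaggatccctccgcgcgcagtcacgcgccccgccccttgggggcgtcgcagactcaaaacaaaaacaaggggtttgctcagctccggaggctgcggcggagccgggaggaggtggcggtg
A match of letters is a description of the window and not a binding site, and windows without it may hold other FOXO sequences.

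The wider pathway was read through 6 lists of genes, which share some members. Upstream of the FOXO factors, no gene of the PI3K and AKT pathway passed the threshold in either direction among 24 tested, of which 16 had a difference above 0. Over all tested genes 1.23% were higher, 1.3% lower and 54.7% above 0 in difference, the background for this and the following lists. Without isotype replicate 1, 3.35% of all tested genes passed as higher and 5.9% as lower. The median difference of the pathway was 0.16, beside 0.03 for all tested genes, and 0.05 without isotype replicate 1. The smallest p belonged to Inpp5d, which encodes the phosphatase SHIP-1 that removes a phosphate from the lipid made by PI3K, with 9.71 ± 0.10 (SD, n = 4) on anti-IL-10R arrays and 9.23 ± 0.28 on isotype arrays (limma adjusted p = 0.111). Rictor, a subunit of the mTORC2 complex that phosphorylates AKT, differed by 0.67 ± 0.22 (SE), Inpp4b, a further lipid phosphatase, by 0.37 ± 0.12, and Pik3cd, the PI3K catalytic subunit of leukocytes, by 0.33 ± 0.14. None of the 3 passed. Without isotype replicate 1 Rictor differed by 0.44.

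Among 20 genes whose products modify or bind FOXO proteins, 1 fell, none rose, and the median difference was −0.03, or −0.07 without isotype replicate 1. Prmt1, an arginine methyltransferase known to methylate FOXO1 and so to hinder its phosphorylation by AKT, had 7.16, 7.20, 7.12 and 7.03 on anti-IL-10R replicates 1 to 4, against 7.54, 7.93, 7.52 and 7.80 on isotype replicates 1 to 4. The groups were well apart, and Prmt1 fell by 0.57 ± 0.12 (SE, limma adjusted p = 0.0469). With 1 array left out, the call held without isotype replicate 1 (adjusted p 0.0147) and ended without any of the other 7 (up to 0.138). It also ended without the filter on dim genes (adjusted p 0.0699) and with a trended and robust variance (0.0533). Xpo1, the nuclear export receptor, and Ywhae, a 14-3-3 protein that holds phosphorylated FOXO in the cytoplasm, differed by −0.33 ± 0.11 and −0.26 ± 0.10, and Ep300, an acetyltransferase, by 0.48 ± 0.15. None of these passed with all arrays. Without isotype replicate 1, 3 of the 20 genes passed the threshold as lower (Prmt1, Xpo1 and Ywhae), as did 5.9% of all tested genes.

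Of other genes known as FOXO targets, 25 of 33 measured passed the filter on dim genes. Il7r, Bcl6, Klf4 and 5 more were below it. Among the 25, 1 rose and none fell, where 1.23% of all tested genes were higher and 1.3% lower. The median difference was 0.16, and 17 of the 25 were above 0, beside 0.03 and 54.7% for all tested genes. Without isotype replicate 1 the median was 0.11. Klf2, named above as a FOXO1 target, differed by −0.03 (limma adjusted p = 0.964). It was 1 of 8 below 0, with Cdkn1a (−0.38) and Cdkn2d (−0.32) among the others. The gene that rose was Txnip, an inhibitor of thioredoxin and of glucose uptake, with 10.95, 10.99, 11.05 and 11.20 on anti-IL-10R replicates 1 to 4, against 10.11, 10.37, 10.28 and 10.18 on isotype replicates 1 to 4. Its difference was 0.81 ± 0.11 (SE, limma adjusted p = 0.017), and every anti-IL-10R array stood well above the isotype arrays. With 1 array left out, the call of Txnip held in 4 of 8 fits, and it ended without anti-IL-10R replicates 2, 3 and 4 and without isotype replicate 4 (adjusted p up to 0.0699). Fasl, a death ligand, Rbl2, a pocket protein that represses cell cycle genes in resting cells, and Ccnd2, a cyclin that FOXO factors are known to repress, differed by 0.40 ± 0.09, 0.33 ± 0.09 and 0.42 ± 0.13. None of these 3 passed with all arrays, and Fasl passed without isotype replicate 1 (limma adjusted p = 0.0247).

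**Figure D4:**
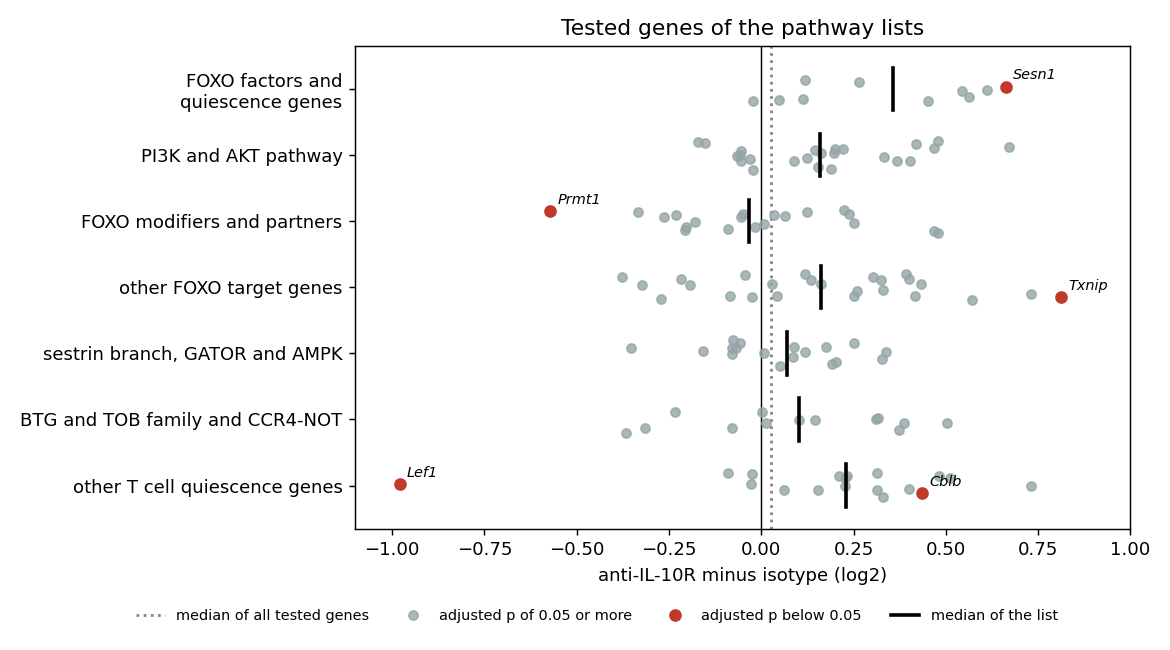
Difference of each tested gene of the lists, anti-IL-10R minus isotype (log2), with the lists down the page; red points passed the adjusted p threshold, vertical bars are list medians and the dotted line is the median of all tested genes. Sesn1, Txnip and Cblb lie to the right and Prmt1 and Lef1 to the left as the only genes of these lists past the threshold.

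Neither partner group of the sestrins nor that of the BTG proteins held a gene past the threshold with all arrays. Of 18 tested genes of the GATOR and AMPK branch, 11 had a difference above 0, with a median of 0.07, and −0.06 without isotype replicate 1. Rragc, a Rag GTPase that carries the amino acid signal to mTORC1, differed by 0.34 ± 0.14 (SE), the AMPK subunits Prkab2 and Prkaa1 by −0.35 ± 0.17 and 0.18 ± 0.11, and Nprl2, a GATOR subunit, by 0.20 ± 0.18. Without isotype replicate 1 the difference of Nprl2 was 0.02, and that of Prkab2 was −0.20 without isotype replicate 3. Of 13 tested genes of the BTG and TOB family and the deadenylase complexes, 9 had a difference above 0, with a median of 0.10, and −0.02 without isotype replicate 1. Cnot9, a CCR4-NOT subunit, differed by −0.37 ± 0.11, the deadenylase subunits Pan2 and Pan3 by 0.50 ± 0.16 and 0.39 ± 0.15, and Cnot6l, a catalytic deadenylase of CCR4-NOT, by 0.32 ± 0.14. Cnot6l differed by 0.20 and Cnot9 by −0.42 without isotype replicate 1, where Cnot9 passed (limma adjusted p = 0.0286).

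Of 18 tested genes linked with T cell quiescence by other routes, 1 rose and 1 fell, where 1.23% of all tested genes were higher and 1.3% lower. Of the 18, 14 had a difference above 0 and the median was 0.23, beside 54.7% and 0.03 for all tested genes. Without isotype replicate 1 the median was 0.16. Cblb, a ubiquitin ligase that restrains T cell activation, had 11.91, 11.98, 12.00 and 12.03 on anti-IL-10R replicates 1 to 4, against 11.51, 11.50, 11.62 and 11.54 on isotype replicates 1 to 4. Both groups were tight and apart, and Cblb rose by 0.44 ± 0.09 (SE, limma adjusted p = 0.0478). Lef1, which encodes a partner of beta-catenin active in naive and memory cells, moved the other way, with 7.59, 7.30, 6.98 and 7.47 on anti-IL-10R replicates 1 to 4, against 8.04, 8.18, 8.41 and 8.62 on isotype replicates 1 to 4. It fell by 0.98 ± 0.17 (SE, limma adjusted p = 0.0291). Both calls held without isotype replicate 1 (adjusted p 0.0217 for Cblb and 0.0081 for Lef1) and ended without any 1 of the other 7 arrays (up to 0.146 and 0.0941). That of Cblb also ended without the filter on dim genes (adjusted p 0.0744) and with arrays centred on their median (0.0934). Peli1, a ubiquitin ligase that dampens T cell activation, and Vsir, which encodes the checkpoint protein VISTA that supports naive T cell quiescence, differed by 0.48 ± 0.13 and 0.51 ± 0.14 and did not pass with all arrays. Peli1 passed without isotype replicate 1 (limma adjusted p = 0.0389).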

How the data were processed

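Gene expression was measured in 8 samples of sorted spleen CD8 T cells, 4 anti-IL-10R and 4 isotype, on Affymetrix Mouse Gene arrays. The deposited values are log2 signals per transcript cluster, which was read from their range of 1.57 to 13.89. The submitters' processing notes name Affymetrix Power Tools as the authors' software. How signals were summarised and normalized, and the software version, is not given in the sources used here. Array medians were 5.19 to 5.31. No detection call was used, and the number of arrays limits precision. No pair of arrays was identical.

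Of 41345 rows, 23521 had 1 gene symbol in the platform annotation, 1814 had several and 16010 had none. Symbols were updated through gene identifiers in RefSeq's GRCm38.p6 table. Levels of different genes were not compared. Differences were fitted with limma (version 3.58.1, R 4.3.3; moderated linear models with 9.59 degrees of freedom) over all 12019 genes, with two-sided p and Benjamini-Hochberg adjustment. On simulated data with the spread of those genes, 32 percent of genes changed 1.5-fold and 73 percent of those changed 2-fold were called. Of the simulated calls, 8.7 percent were false. The simulated noise was independent and held no array apart from the others, unlike isotype replicate 1 in these data. The genes, lists and tests were chosen with earlier results of these data known. Named were all 10 genes, list genes past the threshold, otherwise the 4 of smallest p in each list. Klf2, Cdkn1a and Cdkn2d were named outside that rule. Alternatives covered the filter, normalization, row choice, variance model, array weights (statmod 1.5.0), replicate block, the Welch test, the threshold and each array left out. List genes not in a row with 1 symbol were not analysed here.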

Additional observations from a re-analysis of the deposited data

Results flagged for a closer look

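In the groups of 4 arrays, an array was marked where its gap to the nearest other, divided by the range of its group, exceeded Dixon's critical value at the 95% level, which chance gives in about 1 of 20 groups. None of the 10 FOXO and quiescence genes was marked in either group. Of the 24 further genes named from the pathway lists by threshold or smallest p, 4 were, each in 1 group. In all, 4 of the 68 groups checked were marked, close to the 1 of 20 that chance gives. Xpo1 was 8.52 on anti-IL-10R replicate 4, against 8.68 to 8.71 on the other anti-IL-10R arrays. The other marks fell on isotype replicate 1, the array that stood apart. There Ywhae was 11.61 (the other isotype arrays 11.85 to 11.89), Nprl2 was 8.75 (9.44 to 9.58) and Cnot6l was 9.38 (9.82 to 9.90).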

How the results depend on the processing

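Of 166 differences of the 10 genes under alternatives, 141 kept direction and call, 10 lost the call (Sesn1 each time), 9 gained it (Ccng2 in 7, Btg1 and Foxo3 in 1 each) and 6 changed sign (Foxo1 and Tob1). The count of the 10 genes that were higher, 1 in the report, was 0 without the filter on dim genes, 0 with the replicate block and 0 by the Welch test. It was 2 after quantile normalization, with arrays centred, with rows of a gene averaged, with the trended and robust variance and at an adjusted p below 0.1, and 4 with array weights, which gave isotype replicate 1 a weight of 0.142. The stricter filter, a mean of at least 6.97, left out Foxo3, Foxo4, Sesn1, Pik3ip1 and Tob1, and its 1 call was Ccng2. With 1 array left out the count was 0 to 2, and 2 without isotype replicate 1. None of the 10 was lower in any of these fits. The median difference, 0.36, was 0.24 with array weights and 0.24 to 0.39 with 1 array left out. Tob1 turned to −0.023 after quantile normalization and to −0.064 with array weights, and spanned −0.030 to 0.21 with 1 array left out; Foxo1 spanned −0.081 to 0.031. Over all tested genes, 148 were higher and 156 lower. The counts were 67 and 78 without the filter, 239 and 221 with the stricter filter, 204 and 427 after quantile normalization, 219 and 307 with arrays centred, 225 and 197 with the trended and robust variance, 654 and 815 with array weights, 17 and 9 by the Welch test, and 476 and 420 at an adjusted p below 0.1. With 1 array left out they spanned 2 to 403 higher and 1 to 709 lower, the extremes being isotype replicate 4 and isotype replicate 1. The replicate numbers do not pair the samples by any label, and the deviations of same-numbered arrays correlated at −0.16 to 0.117. With the replicate block 2 genes were higher and 2 lower, and the adjusted p was 0.109 for Sesn1, 0.129 for Prmt1, 0.0868 for Txnip, 0.146 for Cblb and 0.104 for Lef1, so these calls ended; by the Welch test those of Prmt1 (0.162) and Lef1 (0.115) ended too; 1 of 4 anti-IL-10R arrays correlated best with its own number. Why calls changed was not tested, beyond the fewer arrays or genes that some alternatives use by construction.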
